A study of Mus musculus with 32 samples.

Results

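The genes described here are 6 genes of the high endothelial venule, the vessel through which lymphocytes leave the blood and enter a lymph node: Glycam1, Madcam1, Chst4, Fut7, Ccl21a and Cxcl13. They were listed by name and were picked because Glycam1 was high in the control lungs, so the lung RNA-seq levels and the lung difference between cisplatin and control are given here as a description, without a test. All 6 were found, by GENCODE symbol, among the 25059 genes of the RNA-seq files. The animals were female wild-type C57BL/6J mice of 6 to 7 months. Cisplatin mice received 10 mg per kg by intraperitoneal injection and control mice the same volume of saline. Organs were taken 4 h after injection according to the treatment protocol, while the sample labels give 2 h. RNA-seq covered kidney, liver, lung and spleen with 2 control and 2 cisplatin libraries per organ, and XR-seq and Damage-seq covered the same 4 organs of cisplatin mice only, with 2 libraries per organ.

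The data did not bear out the name of the set as a whole in lung. Glycam1 had 155 and 159 CPM in the control lungs and 0.349 and 0.0863 CPM in the cisplatin lungs, a log2 fold change of -9.79, where CPM scales the reads of a gene by all reads on genes of the library. Madcam1 was far lower in level and had a log2 fold change of -3.51. Fut7, Cxcl13 and Chst4 had log2 fold changes of -1.46, -1.38 and -0.42, and Ccl21a had almost no reads in any library. General endothelial genes kept nearly the same level in the control and cisplatin lungs, but their level cannot show 1 vessel type apart from the others. Glycam1 is therefore described by name below and not as a measure of a vessel type.

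In a lymph node, high endothelial cells display sugar-decorated addressins that slow passing lymphocytes. Glycam1 encodes a secreted mucin that carries sugar ligands for lymphocytes, and Madcam1 encodes the mucosal addressin that binds integrin alpha4 beta7. Fut7 encodes the fucosyltransferase and Chst4 the sulfotransferase that together build these sugar ligands. Ccl21a and Cxcl13 encode chemokines: CCL21 attracts T cells through CCR7, and CXCL13, made mainly by follicular stromal cells, attracts B cells through CXCR5. Some members are also made outside these vessels: Glycam1 by the lactating mammary gland, Fut7 by leukocytes, and Madcam1 by marginal sinus cells of the spleen.

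The promoter windows of Glycam1, high in the control lungs, and of Madcam1 and Cxcl13, highest in spleen, are shown first (RefSeq, GRCm38.p6, 250 bases before to 50 bases after the start). Capitals mark matches of TATAAA, the core of the TATA box, and of a general form of the NF-kappaB site, GGG and CC with any 5 bases between them, searched on both strands. In Madcam1, each capital run joins overlapping matches of the NF-kappaB form.
Glycam1 promoter, chr15:103565032-103565331, strand minus: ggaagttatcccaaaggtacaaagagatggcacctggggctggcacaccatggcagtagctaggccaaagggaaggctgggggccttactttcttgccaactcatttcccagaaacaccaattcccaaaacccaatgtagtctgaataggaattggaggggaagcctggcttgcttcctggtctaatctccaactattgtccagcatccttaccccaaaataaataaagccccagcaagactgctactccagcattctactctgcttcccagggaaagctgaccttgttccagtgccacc
Madcam1 promoter, chr10:79664309-79664608, strand plus: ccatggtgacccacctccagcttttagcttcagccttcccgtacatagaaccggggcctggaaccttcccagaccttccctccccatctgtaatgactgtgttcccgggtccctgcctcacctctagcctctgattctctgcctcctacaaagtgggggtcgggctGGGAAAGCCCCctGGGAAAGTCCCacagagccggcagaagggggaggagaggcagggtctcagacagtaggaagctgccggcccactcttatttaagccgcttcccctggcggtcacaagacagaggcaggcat
Cxcl13 promoter, chr5:95956689-95956988, strand plus: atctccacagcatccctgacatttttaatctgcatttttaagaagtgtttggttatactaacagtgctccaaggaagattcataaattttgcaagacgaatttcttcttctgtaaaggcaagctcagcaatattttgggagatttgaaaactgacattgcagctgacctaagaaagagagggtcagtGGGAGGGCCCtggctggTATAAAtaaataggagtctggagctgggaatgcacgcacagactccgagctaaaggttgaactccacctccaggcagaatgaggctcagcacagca
The Glycam1 window held neither motif. The Madcam1 window held 4 matches of the NF-kappaB form, which lay in 2 runs close to each other, and no TATAAA. The Cxcl13 window held 1 match of each. Of 32851 promoters of the same length, 13.6% held TATAAA and 50.8% held the NF-kappaB form, so that a match to the second was common. The windows of Chst4, Fut7 (2 starts) and Ccl21a held no match of either motif.

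The first 50 bases of 2 coding exons of Ccl21a are shown because they differ in how often they occur in the genome, with no letter marked.
Ccl21a, coding exon 1, chr4:42773869-42773918, strand minus: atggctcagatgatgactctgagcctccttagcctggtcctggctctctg
Ccl21a, coding exon 2, chr4:42773714-42773763, strand minus: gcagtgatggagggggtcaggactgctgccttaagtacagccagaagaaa
The first of them occurs at 5 positions of GRCm38, all on chromosome 4, and the second at 1. Only 23.2% of the 674 windows of 50 bases in the exons of Ccl21a, the length of the RNA-seq reads, occurred once in the genome. The share was 100% for each of the other 5 genes. Over the whole gene, 12.5% of windows of 25 bases, close to the length of an excised oligomer, occurred once in Ccl21a, against 83.9% in Chst4, 90.7% in Madcam1, 99.06% in Fut7, 99.4% in Cxcl13 and 99.9% in Glycam1.

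The 6 genes lie on 6 chromosomes (GRCm38). Glycam1 is at chr15:103562759-103565081 on the minus strand, Madcam1 at chr10:79664559-79668537 on the plus strand, and Chst4 at chr8:110029153-110039740 on the minus strand. Fut7 is at chr2:25423267-25426374 on the plus strand, Ccl21a at chr4:42772860-42773993 on the minus strand and Cxcl13 at chr5:95956951-95961068 on the plus strand. The genes are short, between 1134 bases for Ccl21a and 10588 bases for Chst4. Ccl21a lies whole within 4930578G10Rik, a gene of the opposite strand, and shares 0 exon bases with it.

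Reads on genes per library ranged from 15619474 to 162270280 in RNA-seq and from 10658675 to 59779770 in XR-seq over both strands. The lung control pair and the spleen control pair each agreed almost to within sampling noise (dispersion index 2.75 and 2.98, where 1 is pure sampling), while the other 6 RNA-seq pairs had indices between 39.3 and 349. Each of these 2 pairs was therefore counted as 1 sample in fits, and their closeness is no measure of the spread between mice. A note with the data states that the lung and spleen RNA-seq labels were corrected, and the corrected labels were used. Cdkn1a, the p53 target that encodes p21, was higher in both cisplatin libraries than in both control libraries of every organ, at 503 and 587 CPM against 150.0 and 143 CPM in lung. Surfactant and club cell genes marked the lung libraries: Sftpc had between 14243 and 17660 CPM there and at most 6.48 CPM elsewhere.

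Glycam1 had 4294 and 12269 reads in the 2 control lungs, or 155 and 159 CPM, and 18 and 14 reads in the 2 cisplatin lungs, or 0.349 and 0.0863 CPM. Among all genes it ranked 1240th and 1202nd by CPM in the control lungs. Outside lung, the 12 libraries held between 0 and 52 reads, apart from kidney control replicate 2 with 349 reads (6.34 CPM). Spleen cisplatin replicate 1, with 52 reads, came next at 1.41 CPM. All other libraries were below 1 CPM, so Glycam1 was high in the control lungs alone only when that kidney library is set aside.

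Madcam1 followed another order. The control lungs had 24 and 48 reads and the cisplatin lungs 2 and 11 reads, all at a low level. In spleen it had 776 and 1552 reads in controls and 884 and 1417 after cisplatin, or 16.3 to 24.02 CPM over the 4 libraries. Kidney and liver held at most 6 reads per library.

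The enzymes stood between these patterns. Chst4 had 14.8 and 15.3 CPM in the control lungs and 13.4 and 9.41 CPM in the cisplatin lungs, and at most 1.01 CPM in any other organ, so it marked lung in both treatments. The lung groups of Chst4 lay close together. Fut7 had 2.17 and 2.10 CPM in the control lungs against 1.12 and 0.505 CPM after cisplatin, and 1.87 to 2.64 CPM in spleen. The order of Fut7 in kidney and liver rests on at most 28 reads per library.

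Cxcl13 was highest in spleen, with 257 and 267 CPM in controls and 226 and 177 CPM after cisplatin. Control lungs had 39.7 and 41.3 CPM and cisplatin lungs 19.6 and 11.8 CPM. Liver held 1.71 and 2.97 CPM in controls, but 30.99 and 1.94 CPM in the 2 cisplatin libraries, so a single liver library stood apart. Ccl21a had 0 reads in 13 of the 16 libraries, 2 reads in each cisplatin spleen and 1 read in a cisplatin lung. Its 0 counts cannot be read as a low RNA level given the share of its sequence that is not unique.

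**Figure D1:**
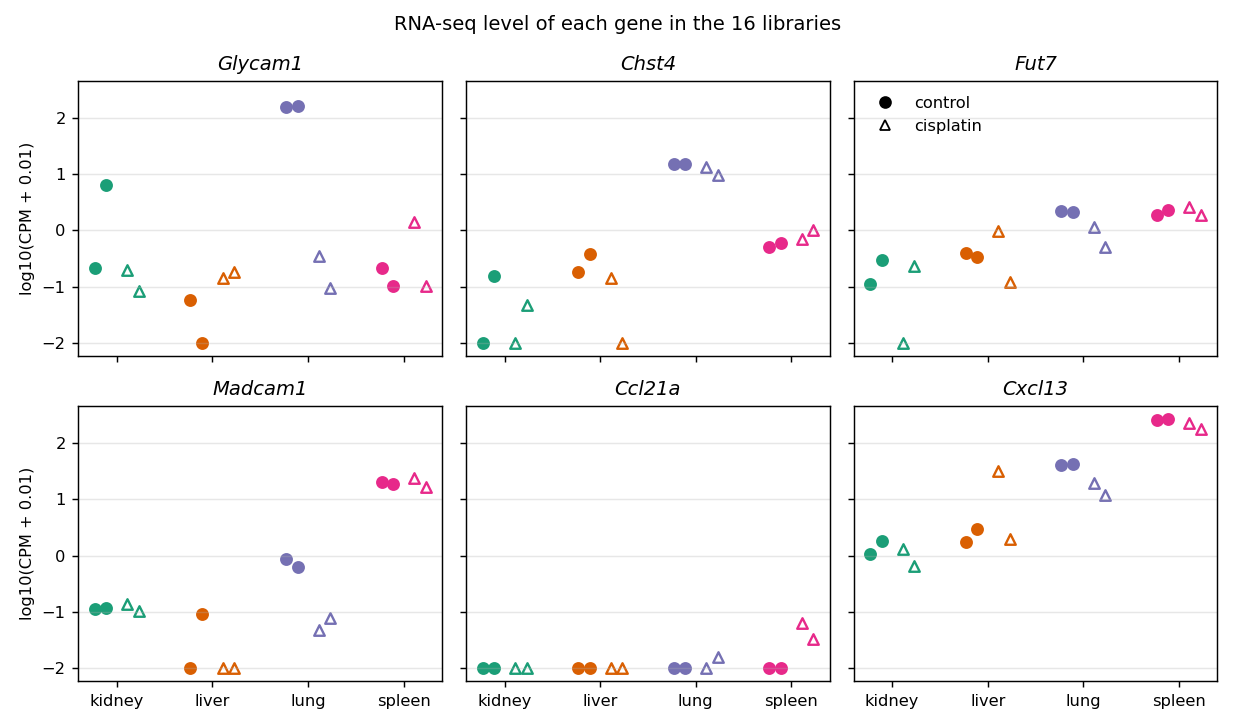
RNA-seq level of the 6 genes by organ, as log10 of CPM plus 0.01, with 1 point per library (filled circles control, open triangles cisplatin). Glycam1 stands at 155 and 159 CPM in the control lungs and below 7 CPM in every other library, whereas Chst4 is high in all 4 lung libraries and Madcam1 and Cxcl13 are highest in spleen.

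Per exon length, which allows genes to be compared, the order of levels in the control lungs was Glycam1 at 72.8 and 74.7 RPKM, Cxcl13 at 34.5 and 35.9 RPKM, Chst4 at 6.48 and 6.71 RPKM, Fut7 at 0.921 and 0.893 RPKM and Madcam1 at 0.604 and 0.434 RPKM. In the cisplatin lungs, Cxcl13 led at 17.1 and 10.3 RPKM, followed by Chst4 at 5.87 and 4.12 RPKM. Fut7 then had 0.477 and 0.215 RPKM, and Glycam1 had 0.164 and 0.0404 RPKM. Neighbours in this order did not overlap in the control lungs, which count as 1 sample, and in the cisplatin lungs the same held from Cxcl13 down to Glycam1. Madcam1, at 0.0270 and 0.0472 RPKM, overlapped Glycam1.

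Against the whole transcriptome, 5 of the 6 genes passed the filter on low counts in lung, and 4 of them had a log2 fold change of -1 or lower (Glycam1, Madcam1, Fut7 and Cxcl13). Of all 18210 genes in this fit, 9.85% did so, and 5.56% had a log2 fold change of 1 or higher. Madcam1 passed the filter only through the summed control, at 0.688 CPM against 0.0388 and 0.0678 CPM in the cisplatin lungs. Its place in this count was therefore partly set by the filter. Because the genes were picked on this contrast, nothing is read from the difference between these shares. The members nearest the limit were Cxcl13 inside it, at -1.38, and Chst4 outside it, at -0.42. Without cisplatin replicate 2 the count was 3, since Fut7 then differed by -0.93. In bulk tissue, fewer cells of a type and less RNA per cell cannot be told apart.

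The genes that work with the members were described from a list of 12 genes for addressin synthesis and carriers. Only 2 of these 12 had a log2 fold change of -1 or lower in lung, St3gal3 (-1.49), a sialyltransferase, and Nepn (-2.75), a matrix protein not known to carry these sugars, which had at most 0.286 CPM in lung. The median of the list was -0.17, against 0.03 for all genes. The sialomucin Podxl, which can carry the same sugars, had 586 and 566 CPM in control lungs and 599 and 651 CPM in cisplatin lungs, and Cd34, a mucin of endothelial and progenitor cells, had 161 and 163 CPM against 173 and 132 CPM. Chst2, a sulfotransferase that works beside Chst4, had 26.0 and 24.8 CPM against 28.6 and 17.4 CPM. The other 10 genes of the list lay between -0.64 (Gcnt1) and 0.81 (Fut4).

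Among the genes for lymphocyte receptors of the members' products, the log2 fold change in lung was -1.96 for Cxcr5, the receptor of CXCL13, and -1.15 for Ccr7, the receptor of CCL21. It was -0.66 for Itgb7 and -0.57 for Itga4, which encode the integrin that binds MAdCAM-1. Of 12 B and T cell genes, 11 reached -1, with a median of -1.97. Ms4a1, which encodes the B cell antigen CD20, had 91.2 and 95.4 CPM against 27.8 and 20.6 CPM. The exception was Ighm, the IgM heavy chain, which had 2141 and 2161 CPM in controls and 3025 and 1755 CPM after cisplatin. With Ighm in the sum, the list had 2611 and 2640 CPM in controls and 3167 and 1863 CPM after cisplatin. Of 10 lymphoid organizer signals, 3 reached -1, namely Lta (-2.42), Ltb (-1.89) and Tnfsf11 (-1.50), while Ccl19, a CCR7 ligand with at most 0.426 CPM in lung, had a log2 fold change of 1.35. Ltbr, which encodes the lymphotoxin receptor, had a log2 fold change of 0.33.

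None of the 9 endothelial genes reached a log2 fold change of 1 in either direction in lung (median -0.18), and their summed level was 3618 and 3576 CPM in controls and 3277 and 3538 CPM after cisplatin. Cdh5, VE-cadherin of endothelial junctions, had 734 and 726 CPM against 760.1 and 669 CPM. Of the 3 venule genes measured and past the filter, Sele (-1.12), an inducible selectin with at most 1.70 CPM, reached -1, and Selp and Vcam1 did not. Of 6 lymphatic genes, 1 reached 1, Lyve1 (1.10), which had 515 and 528 CPM in controls and 687 and 1568 CPM after cisplatin. Lung epithelium, with 9 genes, had a median of 0.11 and no gene past 1 in either direction.

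Markers of other tissues were lower in the same lungs as Glycam1. All 5 adipose genes reached -1 in lung, with a median of -2.86, and their summed level was 648 and 634 CPM in controls and 89.3 and 27.8 CPM after cisplatin. Adipoq, the adipocyte hormone adiponectin, had 127 and 129 CPM against 25.7 and 10.0 CPM. Ucp1, the uncoupling protein of brown fat, had 314 and 302 CPM against 18.6 and 0.542 CPM. Of the 7 thymus genes that passed the filter, 6 reached -1 (median -3.57), with a summed level over the list of 62.5 and 69.5 CPM in controls and 3.45 and 6.87 CPM after cisplatin. Rag1, which cuts antigen receptor genes in developing lymphocytes, had 44.0 and 48.8 CPM in controls and 1.38 and 4.28 CPM after cisplatin. Foxn1, which defines thymic epithelium, had at most 0.0519 CPM in lung and did not pass the filter. The list also holds Psmb11, Prss16 and Aire, which did pass it, so Foxn1 alone does not describe the list. Mammary genes were near 0: Csn1s1 and Wap had 0 reads in all 4 lung libraries and Csn2 had at most 0.961 CPM. The part of these tissues in the lung level of Glycam1 was not tested.

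**Figure D2:**
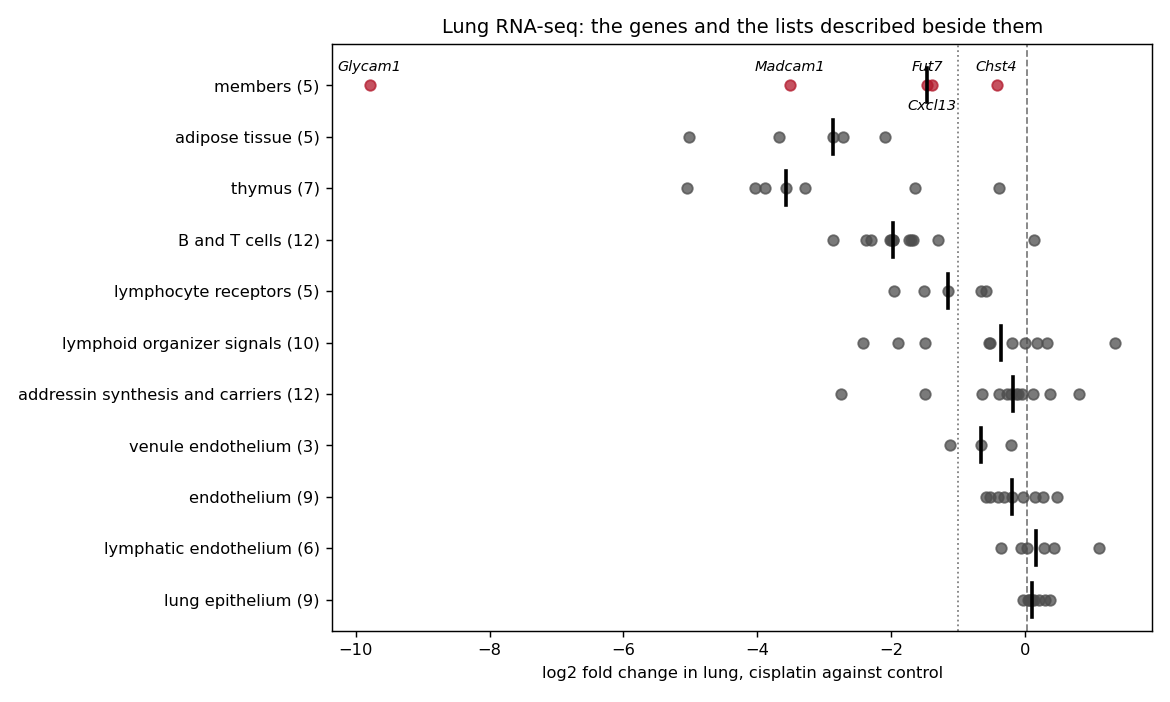
Log2 fold change of cisplatin against control in lung for the 5 genes that passed the filter (red, named) and for 10 lists of genes (grey), with the number of genes in brackets, a black bar at the median of each list, a dotted line at -1 and a dashed line at the median of all genes. Glycam1 lies at -9.79, the adipose, thymus and lymphocyte lists lie below -1 at the median, and the endothelial and epithelial lists lie around 0.

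Across the 16 RNA-seq libraries, the link between Glycam1 and these lists was uneven. Libraries of 1 organ resemble each other and 2 control pairs are nearly identical, so correlations are given as descriptions over 16 points. The control lungs, on which Glycam1 was picked, weigh heavily in each of them. The log2 level of Glycam1 had Pearson's r = 0.75 with the summed adipose list, 0.61 with the endothelial list and 0.61 with lung epithelium. It was 0.54 with thymus, 0.42 with addressin synthesis and carriers, 0.41 with lymphatic endothelium and 0.15 with B and T cells. With mammary genes r was 0.10, with the venule genes -0.01 and with lymphoid organizer signals -0.06. Kidney control replicate 2, with 349 Glycam1 reads, had 111 CPM of adipose genes, and spleen cisplatin replicate 1, with 52 reads, had 62.5 CPM, against 3.25 to 5.50 CPM in the other spleens. Kidney control replicate 2 also had 363 CPM of the B and T cell genes, against 69.0 to 92.6 CPM in the other 3 kidney libraries. Kidney cisplatin replicate 2, however, had 113 CPM of adipose genes and only 4 Glycam1 reads. In kidney, the library with the Glycam1 reads thus stood apart in the B and T cell sum and not in the adipose sum. The B and T cell sums include Ighm, which made up most of that sum in the lungs, so they do not stand for each gene of the list. By contrast, liver control replicate 2 had 353 CPM of B and T cell genes and 0 Glycam1 reads. The spleens had at least 22283.5 CPM of the B and T cell genes and at most 1.41 CPM of Glycam1. The part of either kind of cell in the Glycam1 reads was not tested.

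**Figure D3:**
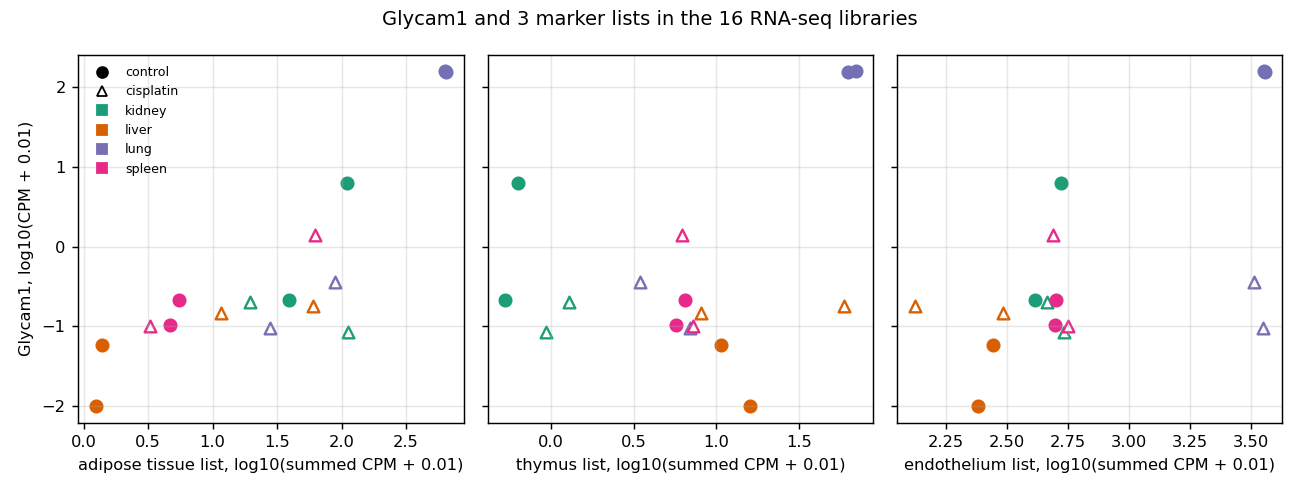
Glycam1 against the summed level of 3 marker lists in the 16 RNA-seq libraries, both as log10 of CPM plus 0.01 (colour for organ, filled circles control, open triangles cisplatin). The 2 control lungs are the topmost points in each panel, while the cisplatin lungs have about the same endothelial sum and fewer adipose and thymus reads.

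The 10 genes outside the set whose levels were most like those of Glycam1, by Pearson's r of log2(CPM + 1) over 16 libraries, were Acvr1c (0.95), Otop1 (0.93), Sost (0.92), A530016L24Rik (0.92), Susd5 (0.90), Fcor (0.89), Cib2 (0.89), Rag1 (0.89), Adam12 (0.88) and Adig (0.88). Acvr1c encodes an activin receptor of adipocytes and Adig encodes adipogenin, a protein of fat cells. Otop1 had 20.97 and 22.5 CPM in the control lungs and at most 2.34 CPM elsewhere. The other 5 members were left out of this ranking in advance. Their r with Glycam1 was 0.64 for Chst4, 0.42 for Fut7, 0.16 for Cxcl13, -0.08 for Madcam1 and -0.07 for Ccl21a. The same 10 genes led when each near-identical control pair was counted as 1 sample (14 points). Glycam1 was picked for its level in the control lungs, and that 1 sample largely sets r in both settings. The repeat of the same 10 genes is therefore no independent check. By Spearman's rank correlation, 0 of these 10 were among the first 10.

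**Figure D4:**
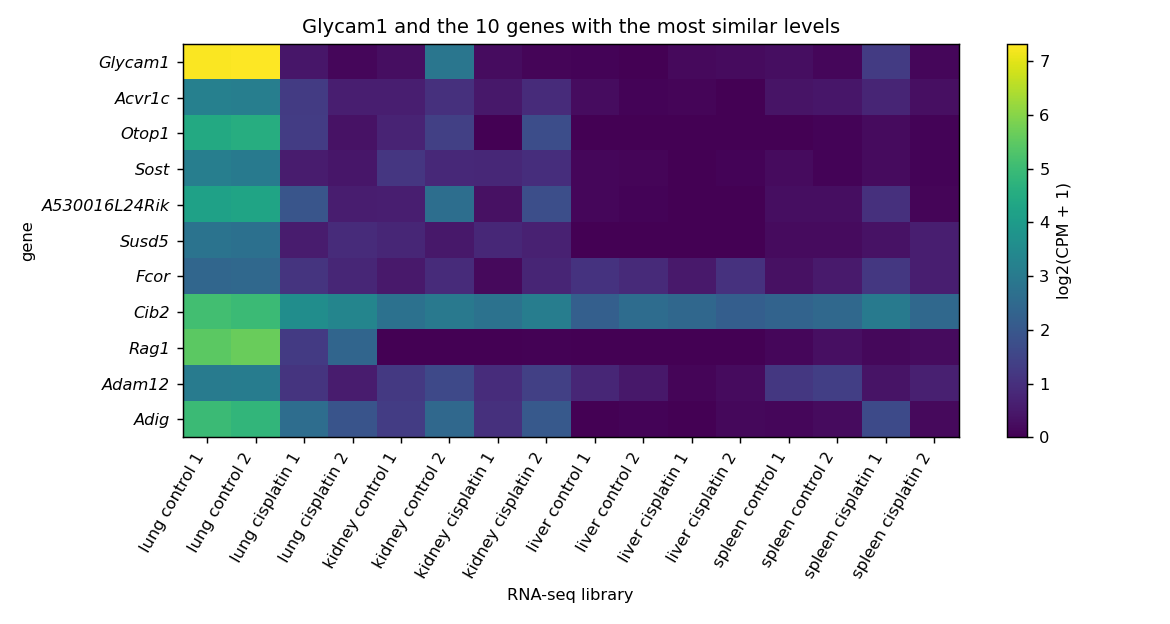
Level of Glycam1 and of the 10 genes most like it (rows) in the 16 RNA-seq libraries (columns), as log2(CPM + 1). All 11 rows are brightest in the 2 control lungs, and kidney control 2 is the next brightest library for Glycam1.

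In the other organs, cisplatin was tested against control in edgeR against a log2 fold change of 0.4. The low level of Glycam1 in these organs was part of the choice of genes, so its values there are a description and nothing is read from its calls. In kidney, Cxcl13 was the only member past the filter on low counts. It had 20 and 98 reads in controls and 20 and 34 after cisplatin, which overlapped, and a log2 fold change of -0.60 ± 0.57 (SE, adjusted p = 0.777). With 0 of 1 members called, and 0 at an unadjusted p under 0.05, the background was 5.05% of 15471 genes. Glycam1, at 4 and 349 reads against 3 and 4, was left out by the filter. Of the 6 alternatives that included it, 3 called it, namely DESeq2 (3.33% of genes called), no filter on low counts (9.14%) and the fit without control replicate 1 (12.3%). The other 3, all organs in one fit and the fits without either cisplatin replicate, did not. The 349 reads came from control replicate 2, whose lymphocyte and adipose sums are given above.

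In liver, 2 members passed the filter and 0 were called by edgeR or by DESeq2. The edgeR fit called 0% of 13868 genes, of which 1287 had an unadjusted p under 0.05. Cxcl13, with 70 and 144 reads in controls and 909 and 68 after cisplatin, was the 1 member at an unadjusted p under 0.05, with a log2 fold change of 2.58 ± 1.00 and an adjusted p of 0.482. Without cisplatin replicate 1 the value was -0.08 ± 0.56, so it rests on that library. It was called without cisplatin replicate 2 (3.45 ± 0.39, adjusted p = 9.9e-05, 2.45% of genes called) and without control replicate 2 (3.20 ± 0.84, adjusted p = 0.0388, 0.572% called). Fut7 differed by 0.42 ± 0.87 (adjusted p = 0.961).

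In spleen, the organ with the most Madcam1 and Cxcl13, 5 members passed the filter and 0 were called, against 0.181% of 17686 genes. None reached an unadjusted p under 0.05 and DESeq2 called none. Madcam1 differed by 0.13 ± 0.30 and Cxcl13 by -0.36 ± 0.23 on the log2 scale. Chst4 differed by 0.67 ± 0.56 and Fut7 by 0.10 ± 0.43. Glycam1, as a description, had a log2 fold change of 2.54, from 8 and 8 reads in controls to 52 and 8 after cisplatin, so the value came from replicate 1. The adjusted p was 1.000 for each member tested, after rounding, and the control pair counted as 1 sample leaves 1 residual degree of freedom.

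XR-seq reads are oligomers cut out by nucleotide excision repair. Their number on the transcribed strand (TS) includes repair coupled to transcription, and the non-transcribed strand (NTS) shows the general kind. It was asked whether the members, picked on lung RNA, also differed in lung repair. All XR-seq mice had received cisplatin, so the control lungs with high Glycam1 have no counterpart here. Glycam1 had 0 TS and 0 NTS reads in both lungs, which allows up to 0.0557 and 0.0785 TS CPM (3 reads per library, counting error only). In the other organs it had 0 to 7 TS reads per library. At this depth, a difference of Glycam1 between organs was not detectable.

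Fut7 had the most XR-seq reads of the set. Its TS reads numbered 137 and 45 in lung, 41 and 119 in spleen, 39 and 22 in liver and 0 and 18 in kidney, or 2.55 and 1.18 TS CPM in lung and 4.34 and 3.88 in spleen. By TS CPM, lung thus lay above kidney and liver and below spleen. Summed over libraries, 421 of 489 Fut7 reads were on the TS, or 86.1% (95% Wilson interval 82.7 to 88.9%), with 79.5% in lung (73.8 to 84.2%) and 99.4% in spleen. These intervals cover counting error only. Over all genes the TS share was 87.2%, and it was 89.9% in lung and 88.5% in spleen, so Fut7 lay near the share of all genes overall and below it in lung. Cdkn1a, which is transcribed in every organ, had 91.9% of its 16931 reads on the TS. GG dinucleotides, where cisplatin adducts form, were not more frequent on the TS of Fut7, at 43.8% of the 616 on both strands.

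The other members had fewer reads. Chst4 had 9 and 7 TS reads in lung, 16 and 8 in liver, 15 and 7 in spleen and 30 and 7 in kidney. Scaled to depth, this gave 0.167 and 0.183 TS CPM in lung and 0.227 to 1.92 TS CPM elsewhere. Lung thus had the lowest Chst4 values although it led in Chst4 RNA, but on few reads, and the test below called no difference. Over all organs, 70.2% of its 141 reads were on the TS (62.2 to 77.1%), below the 87.2% of all genes. Madcam1 had 0 and 41 TS reads in spleen, 12 and 23 in liver, 0 and 8 in kidney and 0 and 3 in lung. Cxcl13, the member with the most RNA in spleen, had 0 and 20 TS reads there and at most 6 in any other library. Ccl21a had 0 reads on both strands in all 8 libraries.

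**Figure D5:**
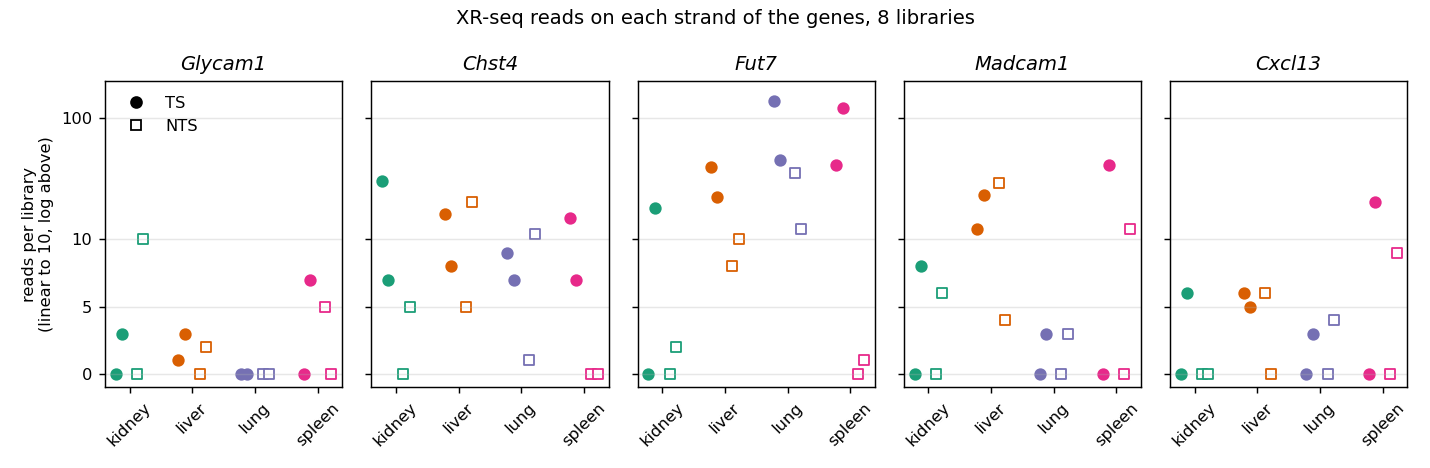
XR-seq reads on the TS (filled circles) and NTS (open squares) of 5 of the genes in each of the 8 libraries, on an axis that is linear to 10 reads and logarithmic above. Fut7 reaches 137 TS reads in lung and 119 in spleen, while Glycam1 has 0 reads on both strands in both lungs.

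Of the 3 members that passed the filter in XR-seq (Chst4, Fut7 and Madcam1), edgeR's quasi-likelihood test on TS reads called 0 between lung and kidney, where 27.2% of all 19731 genes were called. It also called 0 between lung and liver (46.5% of genes) and 0 between lung and spleen (21.8%), with no member at an unadjusted p under 0.05 in the 3 comparisons. DESeq2 called 0 of the 3 members to which it gave an adjusted p in each, which left out Glycam1, Cxcl13 and Ccl21a. Fut7 in lung differed from kidney by 2.41 ± 1.24 on the log2 scale (adjusted p = 0.184), from liver by 1.11 ± 1.17 and from spleen by -1.14 ± 1.16. Chst4 differed by -2.48 ± 1.71 from kidney, -0.93 ± 1.65 from liver and -2.32 ± 1.72 from spleen. Madcam1 differed by -1.97 ± 2.32 from kidney, -3.70 ± 2.37 from liver and -4.13 ± 2.41 from spleen. The standard errors of over 1 on the log2 scale mean that differences of 2-fold could not have been called for these genes. Without kidney replicate 2, which held all 18 of the kidney reads of Fut7, that gene was called (adjusted p = 0.00323) where 39.6% of genes were. In a fit of lung and liver alone, Madcam1 was called (-3.73 ± 1.45, adjusted p = 0.0416) where 60.8% of genes were.

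The same fits had the depth to call genes around the members. All 9 endothelial genes had more TS reads in lung than in kidney (median log2 difference 2.45) and in liver (3.06), and 8 were higher and 1, Pecam1 (-0.50 ± 0.14), lower than in spleen. Of all genes, 13.8% were called higher in lung than in kidney, 21.6% than in liver and 10.1% than in spleen, and 13.3%, 24.8% and 11.7% were called lower. With scaling to total reads in place of TMM, the higher genes made up 37.8% of the calls against kidney, in place of 50.9%, and 57.4% against liver, in place of 46.5%. Vwf, the clotting factor of endothelium, was higher in lung by 4.06 ± 0.28 than in kidney and by 2.18 ± 0.25 than in spleen. Of the 12 genes of addressin synthesis and carriers, 6 were higher and 2 lower in lung than in kidney, 7 higher and 1 lower than in liver, and 4 higher and 3 lower than in spleen. Podxl led these with 2.38 ± 0.18 against kidney and 3.12 ± 0.19 against liver, whereas Gcnt1, which starts the branch on which the sugar ligand is built, was lower than in kidney (-1.69 ± 0.24) and spleen (-2.36 ± 0.25). The receptor genes Cxcr5 (-4.04 ± 0.56), Ccr7 (-3.26 ± 0.43), Itga4 (-2.17 ± 0.26) and Itgb7 (-2.10 ± 0.31) were lower in lung than in spleen, and Itga4 (2.29 ± 0.28) and Itgb7 (1.57 ± 0.32) were higher in lung than in kidney. Of the 12 B and T cell genes, 8 were lower in lung than in spleen. The edgeR fits called none of the venule, thymus or adipose genes higher in lung than in any of the 3 organs. They called 3 lower in lung than in liver, the adipose genes Cidec (-4.14 ± 0.54) and Plin1 (-1.32 ± 0.47) and the thymus gene Dntt (-5.06 ± 0.63). Between 0 and 3 genes of each of these lists had an unadjusted p under 0.05 in either direction. Over the alternatives, at most 2 genes of any 1 list were called higher, against kidney, and at most 3 lower, adipose genes against liver.

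Damage-seq reads mark adducts left in the DNA. The members had between 0 and 50 TS reads per library, and lung held 66 reads of both strands for Glycam1, 142 for Chst4, 63 for Fut7, 61 for Madcam1 and 44 for Cxcl13, summed over its 2 libraries. Summed over all 8 libraries, the TS share was 44.4% for Glycam1 (95% Wilson interval 35.9 to 53.1%), where 47.6% of its GG dinucleotides lie on the TS. It was 52.6% for Chst4 (48.04 to 57.1%), 42.1% for Fut7 (36.0 to 48.4%), 45.5% for Madcam1 (37.9 to 53.3%) and 58.3% for Cxcl13 (48.6 to 67.3%). Over all genes it was 45.6%, which lies within the intervals of Glycam1, Fut7 and Madcam1 and below those of Chst4 and Cxcl13. The GG share on the TS was 51.6% for Chst4, 43.8% for Fut7 and 51.3% for Cxcl13, each within the interval of that gene, but 55.2% for Madcam1, above its interval. Cdkn1a, for comparison, had 37.4% of 441 reads on the TS (33.03 to 42.02%). Ccl21a again had 0 reads in every library. The intervals cover counting error only, and with 103 to 462 reads per gene they span from 9 to 19 percentage points.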

How the data were processed

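Per the labels and the study's methods, RNA-seq libraries were poly-A selected, made with the NEBNext Ultra RNA kit and read as 50-bp paired ends. The authors aligned these reads to mm10 with STAR and counted them with featureCounts. They aligned Damage-seq and XR-seq reads with BWA after cutadapt and removed duplicates with Picard. The authors deposited raw read counts per gene, by strand (TS and NTS) for Damage-seq and XR-seq. Tool versions are not given in the sources used here. No other column of sample values was left unmapped.

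The members, lists and named genes were chosen with earlier results of these data known. Named genes were the 6 members, Cdkn1a, genes of the lists, and the 10 genes with the highest Pearson correlation with Glycam1 among genes with a mean of at least 1 CPM. CPM was computed over reads on genes and RPKM divides by GENCODE M21 exon length. RNA-seq was tested with edgeR 4.0.16 (TMM, filterByExpr, quasi-likelihood fit, tested with glmTreat at a log2 threshold of 0.4) and XR-seq TS counts with the quasi-likelihood test over all 8 libraries, both at a Benjamini-Hochberg adjusted p under 0.05 over all genes. Standard errors (SE) come from the quasi-likelihood F statistic. DESeq2 1.42.0 and the settings named in the closing section were alternatives. Lung fold changes used a fixed dispersion of 0.05. Pairs with a dispersion index of 3 or below were summed. Nothing in the labels says that libraries of 1 group came from separate mice (the methods call them biological replicates), so p-values measure the spread between these libraries.

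The fits were tested on simulated counts with known changes before use. At a simulated log2 change of 2, they called 91.5% of changed genes in kidney, 40% in liver and 42.5% in spleen. For XR-seq of lung against kidney it was 87%. A count of 0 in liver or spleen can therefore miss changes of this size. The changed genes were drawn from genes above 1 CPM, and all genes were given a common dispersion. Chst4 and Madcam1, at 0.393 and 0.345 TS CPM over all XR-seq libraries, lay below that level. The 87% does not hold for them, and a count of 0 in XR-seq can miss such changes too. In lung, the count of fold changes without a test found 99.5%, together with 551 unchanged genes of 18064. Promoters came from RefSeq (GRCm38.p6) and matched the genome in all 7 windows, and GENCODE M21 gave gene positions. The treatment time, library layout and the correction of the lung and spleen labels are as the submitters give them. Calculations used Python 3.11.15 and R 4.3.3. A gene of the receptor list is not reported here.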

Additional observations from a re-analysis of the deposited data

How the results depend on the processing

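The lung log2 fold changes kept their sign in all 45 alternatives (45 below 0). Leaving out 1 library at a time, Glycam1 ranged from -10.82 to -8.84, Madcam1 from -4.11 to -3.32, Fut7 from -2.06 to -0.93, Cxcl13 from -1.78 to -1.08 and Chst4 from -0.68 to -0.20, and the number of members at -1 or lower from 3 to 4. Leaving out 1 library at a time, members called ranged from 0 to 1 in kidney, from 0 to 1 in liver, and from 0 to 1 for XR-seq of lung against kidney. The kidney call was Glycam1, also 1 without a filter on low counts and 1 with DESeq2 (9.14% and 3.33% of genes called, and 12.3% without control replicate 1). The liver call was Cxcl13, without cisplatin replicate 2 (adjusted p = 9.9e-05, 2.45% of genes called) or without control replicate 2 (adjusted p = 0.0388, 0.572%). Its adjusted p ranged from 9.9e-05 to 1.0 over 9 alternatives. The fit of lung and liver alone called 1 member in XR-seq, Madcam1. These fits rest on fewer samples or test other genes. The other 46 of 53 alternatives of the tested comparisons called 0 members.

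A fit with the replicate number as a block called 0 members in kidney, liver, spleen and each XR-seq comparison, and left 4 lung members at -1 or lower. The numbers mark no shared batch in the labels. The correlation of the replicate differences of control and cisplatin was 0.64 (kidney), 0.52 (liver), 0.26 (spleen) and 0.10 (lung). The block moved the genes called in kidney from 782 to 3182 and in liver from 0 to 1015. In spleen, with each control library a sample, 38 higher and 24 lower genes were called without the block and 89 and 83 with it. It changed no call of a member. Spleen without 1 cisplatin library left no residual degrees of freedom and was not tested. Scaling XR-seq to total reads moved the share of higher genes among calls from 50.9% to 37.8% (lung against kidney) and from 46.5% to 57.4% (liver), with a shift of the median of all genes from 0.03 to -0.13 and from -0.12 to 0.08, and called 0 members. The endothelial list kept 9 higher genes against kidney and liver and 8 against spleen in all 9 alternatives, while the B and T cell genes lower than in spleen ranged from 2 to 10. In lung, 5 adipose, 11 lymphocyte and 4 to 7 thymus genes were at -1 or lower over 9 alternatives. The genes most like Glycam1 shared 0 of 10 by Spearman's correlation, and 10 of 10 with 14 samples, a setting chosen after seeing the data. The control lungs largely set r with 14 samples too, so the 10 of 10 is no independent check. Depth limits the XR-seq comparisons, where 3 of 6 members had too few reads to test.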
